A study of Mus musculus with 22 samples.

Results

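Open chromatin in the hippocampus of mice killed 12 h after a lipopolysaccharide (LPS) challenge was set against that of mice given saline. The 5 libraries were chosen by their labels alone, out of 22 in the whole series: 3 of the LPS group at 12 h (replicates 1, 3 and 4) and 2 of the saline group (replicates 2 and 3), which was collected at 6 h. LPS and the hour of collection therefore cannot be told apart. All animals of both groups were adult male wild-type C57BL/6J mice that carried the same earlier exposures of this Gulf War Illness model. They had corticosterone (CORT), the stress glucocorticoid of rodents, in the drinking water for 7 days and an injection of diisopropyl fluorophosphate (DFP), an inhibitor of acetylcholinesterase, on day 8. Intermittent CORT over 5 weeks followed, so no library stands for an unexposed mouse. Each library was made by OMNI-ATAC-seq, in which a transposase cuts accessible DNA, from 20 to 30 mg of frozen tissue that holds every cell type of the region. A peak that differs can therefore come from fewer cells of a type or from less open chromatin per cell, which cannot be told apart.

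LPS is a component of the outer membrane of Gram-negative bacteria. It is sensed by the receptor Tlr4, which signals through adaptors to NF-kB and the interferon regulatory factors, and in the brain by microglia, endothelial cells and, through the cytokines they release, astrocytes and neurons. Glucocorticoids act in the hippocampus through the receptors Nr3c1 and Nr3c2 and restrain that response. Accessible sites lie at gene promoters, which are open in most cell types, and at distal enhancers, which are mostly open in particular cell types.

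A selection of promoters that differed in rank between LPS and saline is shown first, from genes on the lists used here. Each is given as the 250 bases before the start site. The sequences are from RefSeq for the same build, GRCm38 (mm10). Birc3, an inhibitor of apoptosis that is a target of NF-kB (chr9:7873171-7873420, minus strand), Dlg2, a scaffold of the postsynaptic density (chr7:92234720-92234969, plus strand), and Maff, a small Maf transcription factor (chr15:79347270-79347519, plus strand), ranked higher in LPS.
Birc3: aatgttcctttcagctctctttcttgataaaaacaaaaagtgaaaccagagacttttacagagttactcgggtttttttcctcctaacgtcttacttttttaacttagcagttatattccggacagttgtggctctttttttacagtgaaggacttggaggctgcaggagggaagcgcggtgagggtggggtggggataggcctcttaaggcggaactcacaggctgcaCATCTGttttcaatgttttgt
Dlg2: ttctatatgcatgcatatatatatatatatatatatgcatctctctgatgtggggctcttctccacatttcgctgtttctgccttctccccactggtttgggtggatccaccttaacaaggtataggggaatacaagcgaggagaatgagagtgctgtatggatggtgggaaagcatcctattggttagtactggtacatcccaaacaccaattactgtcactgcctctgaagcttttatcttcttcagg
Maff: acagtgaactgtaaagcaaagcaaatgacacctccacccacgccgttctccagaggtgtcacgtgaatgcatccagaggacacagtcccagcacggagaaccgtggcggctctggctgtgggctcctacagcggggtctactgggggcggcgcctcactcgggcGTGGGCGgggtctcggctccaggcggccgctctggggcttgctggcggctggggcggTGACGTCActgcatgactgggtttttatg
Zfp488, a transcriptional regulator of oligodendrocyte differentiation (chr14:33978765-33979014, minus strand), Rgs5, a G protein regulator and marker of pericytes (chr1:169655251-169655500, plus strand), and Mt2, a metallothionein induced by metals and glucocorticoids (chr8:94172368-94172617, plus strand), ranked lower in LPS.
Zfp488: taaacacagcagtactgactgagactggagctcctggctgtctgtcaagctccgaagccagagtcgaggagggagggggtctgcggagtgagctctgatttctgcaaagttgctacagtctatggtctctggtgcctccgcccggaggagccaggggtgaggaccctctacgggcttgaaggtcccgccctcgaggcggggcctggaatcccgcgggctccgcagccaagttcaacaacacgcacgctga
Rgs5: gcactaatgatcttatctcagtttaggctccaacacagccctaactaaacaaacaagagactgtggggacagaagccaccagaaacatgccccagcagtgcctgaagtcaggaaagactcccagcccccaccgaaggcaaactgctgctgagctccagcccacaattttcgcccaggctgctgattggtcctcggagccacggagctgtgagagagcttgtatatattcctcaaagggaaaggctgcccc
Mt2: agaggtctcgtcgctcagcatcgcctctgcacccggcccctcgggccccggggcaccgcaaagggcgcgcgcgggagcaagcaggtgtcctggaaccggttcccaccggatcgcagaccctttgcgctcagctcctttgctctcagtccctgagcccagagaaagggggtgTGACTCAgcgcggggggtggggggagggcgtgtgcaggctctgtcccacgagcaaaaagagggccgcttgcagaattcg
Capitals mark matches, on either strand, to 9 motifs: AP-1 (TGANTCA), CRE (TGACGTCA), a neuronal E-box (CAGATG), Egr (GTGGGCG), an RORE core (AGGTCA), an IRF core (GAAACNGAA), an NF-kB core (GGGANTTTC), a short glucocorticoid receptor string (AGAACA) and a TATA box (TATAAAA). Positions are those of the first base of a match, with -1 the base before the start. Birc3 held an E-box match on the minus strand at -21. Maff held a CRE match at -29 and an Egr match at -86, and Mt2 an AP-1 match at -79, all on the plus strand. Dlg2, Zfp488 and Rgs5 held none of the 9 strings, and no match overlapped another. Foxc1, with a larger rank difference than Maff, and Lfng, with a larger one than Rgs5 and Mt2, are not shown. Neither of them held any of the strings. Among the 250 bases before all 32851 starts in the table, the E-box string was found in 14.4%, Egr in 7.02%, AP-1 in 6.75% and CRE in 1.55%. The shares for the remaining motifs were 16.1% for the glucocorticoid receptor string, 14% for RORE, 4.98% for TATA, 1.6% for IRF and 0.941% for NF-kB.

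The peak lists held 248894, 284783 and 265026 distinct intervals in LPS replicates 1, 3 and 4, against 307186 and 250805 in saline replicates 2 and 3. Intervals covered 93.26, 104.2 and 108.5 Mb in LPS and 113.1 and 88.62 Mb in saline. The groups overlapped in both measures. LPS averaged 266234 ± 17975 intervals (SD, n = 3) and saline 278996 ± 39867 (SD, n = 2; exact permutation test, two-sided p = 0.6), and the 10 possible splits of 5 libraries allow no p below 0.2. For covered length the exact p was 1. The read depth behind the lists is unknown. Saline replicate 2 stood apart: its ranks of shared peaks correlated with those of the LPS libraries at Spearman's rho of 0.727 to 0.782, across windows that share sequence composition, while saline replicate 3 reached 0.796 to 0.86 with them and the saline pair 0.779. The LPS pairs had 0.84 to 0.858, and the highest value of the 10 pairs, 0.86, was between the groups, for LPS replicate 3 with saline replicate 3. Of 39 hippocampal region markers 32 had a start in the promoter table, and 23 had a promoter peak in all 5 libraries, among them Neurod6, Wfs1, Prox1 and Emx2. Of 28 genes of blood leukocytes and erythroid cells 22 had such a start, and 1 had a promoter peak in all 5. Of 24 thalamus and habenula genes 22 had such a start, and 15 had a promoter peak in all 5, so these peaks do not single out the hippocampus.

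The genome was divided into 396856 non-overlapping windows that reach 250 bp to either side of a peak summit, of which 300980 had a peak in 2 or more of the 5 libraries. A window counts here as gained where all 3 LPS libraries and neither saline library had a peak, and as lost where both saline libraries and no LPS library had one. Gained windows numbered 5134, or 1.71% of those 300980, and lost windows 5488, or 1.82%. Both sets were small beside the 177061 windows with a peak in all 5 libraries, which were 58.8% of the windows. They were also weak: gained windows had a median percentile of 29, 27.3 and 25.4 within the peaks of LPS replicates 1, 3 and 4, and lost windows of 24.9 and 16.5 within those of saline replicates 2 and 3. Only 397 gained windows (0.132%) and 322 lost ones (0.107%) had a -log10 q of at least 5 in every library of their group. The balance of gained and lost was not stable: with only peaks of -log10 q of 5 or more there were 3270 gained and 3207 lost windows. It also rested on single libraries. With saline replicate 3 left out there were 11454 gained and 43707 lost windows, and with LPS replicate 1 left out 9630 gained and 6850 lost. Each of these leaves fewer libraries for a window to pass, so the counts are larger by construction and each set holds every window called with all 5.

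Part of the switching windows lay beside a peak of the other group. With no peak of the other group within 500 bp, 3800 gained (1.26%) and 3890 lost windows (1.29%) remained, of which 248 (0.0824%) and 219 (0.0728%) were strong. All 10 strongest gained windows, such as those in Supt20 and Itga1, and all 10 strongest lost ones, such as those in Fer and Abca5, lay within 500 bp of a peak of the other group. The single strongest windows described below are therefore those apart from such peaks, a choice made after their values were seen, while counts per gene and per list take all switching windows unless said otherwise.

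By share, gained windows lay farther from genes than lost ones, a description with no test over windows. Of windows more than 100 kb from either end of a protein-coding gene, 2.62% were gained and 1.51% lost, whereas between 1 and 5 kb from a gene end 1.13% were gained and 2.36% lost. Windows within 0.25 kb of either end of a gene switched least, with 0.418% gained and 0.627% lost. Of all gained windows, 39% lay more than 100 kb from a gene end, against 21% of lost windows and 25.4% of all 300980. The order was the same when any single library was left out, with 31.2 to 37.5% for gained and 20.5 to 23.7% for lost windows. It was also the same in the strong windows, with 41.3% for gained and 23.3% for lost. Each set without a library holds every window called with all 5, and the strong windows are a part of those. The order in these sets is therefore partly fixed in advance. Over whole libraries, the share of windows with a peak that lay that far out was 24.82, 25.96 and 25.54% in LPS, against 24.23 and 24.35% in saline. The groups did not overlap, and the difference of 1.15 percentage points had an exact two-sided p of 0.2, the smallest that the design allows (adjusted p = 1 over 5 library measures).

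**Figure D1:**
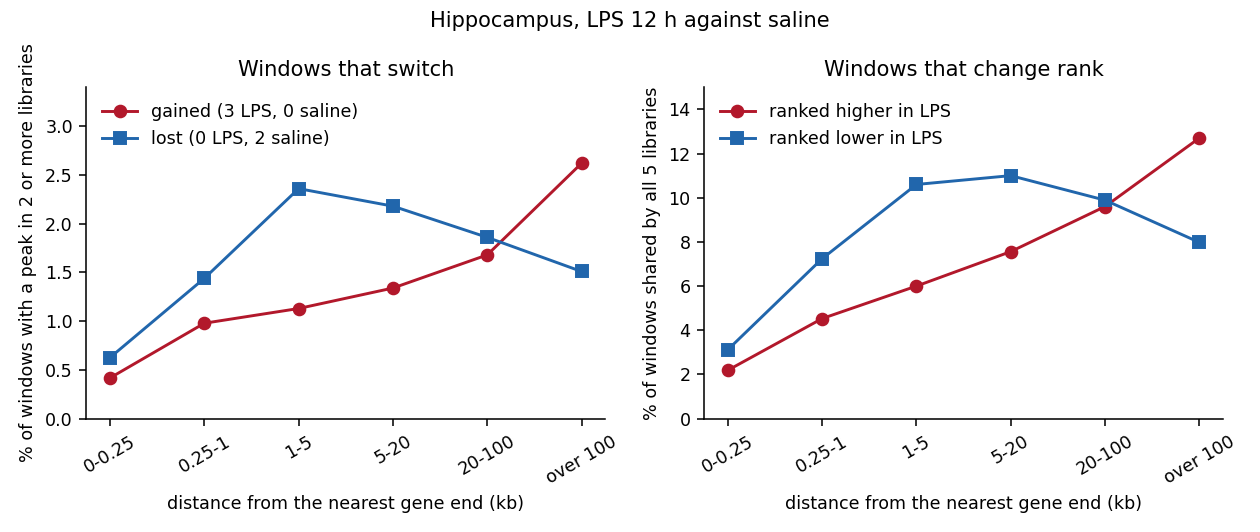
Share of windows gained or lost (left, % of windows with a peak in 2 or more libraries) and ranked higher or lower in LPS (right, % of windows shared by all 5 libraries) against distance from the nearest end of a protein-coding gene in kb. The 2 red lines climb to 2.62% and 12.7% beyond 100 kb, and the 2 blue lines are highest at 1 to 5 kb (2.36%) and 5 to 20 kb (11%).

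Ranks of shared windows followed the same order. Among the 177061 shared windows, each library's strongest peak per window was given a percentile rank by its deposited fold over background, with 100 the strongest. A window ranked higher where every LPS rank exceeded both saline ranks and the means differed by 10 points or more, and lower in the converse case. This held for 15667 windows higher (8.85%) and 16323 lower (9.22%), and at 20 points or more for 8506 and 7249, so which direction was the more frequent depended on the threshold. Beyond 100 kb from a gene end 12.7% ranked higher and 7.98% lower, and between 5 and 20 kb 7.56% ranked higher and 11% lower. Windows beyond 100 kb had median ranks of 52.8, 55.1 and 54.3 in LPS and 50.9 and 53.1 in saline, with overlap between the groups. Windows at 1 to 5 kb had medians of 36, 35.9 and 36.2 in LPS and 39.1 and 38.6 in saline, with no overlap.

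A window was given to the nearest protein-coding gene within 100 kb, and 2714 genes had a gained window, 3524 a lost one and 1062 both, of 18447 genes with a window. Ptprd, a receptor tyrosine phosphatase that organises synapses and spans 2271 kb, had 14 gained windows and 1 lost, of 252. It had a peak in 206, 254 and 230 windows in LPS replicates 1, 3 and 4, against 225 and 173 in saline replicates 2 and 3, so the totals of the groups overlapped. Fhit, a hydrolase gene at a fragile site (1612 kb), had 10 gained and 0 lost of 161. Lsamp, a cell adhesion molecule of limbic neurons, had 13 gained and 5 lost of 332, and Tenm2, a teneurin of the synapse, 13 and 6 of 304. Ranks of shared windows did not always go the same way. Tenm2 had 10 ranked higher and 19 lower of 161, whereas Fhit had 19 higher and 3 lower of 100.

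Among the other genes with the largest net gain, Nrg3, a ligand of the ErbB4 receptor, had 9 gained and 2 lost windows of 177. Negr1 and Tenm3 had 8 and 2 each, of 166 and 194. Nrxn3 had 10 and 5 of 296, and Ptprt 8 and 3 of 174. Lrrtm4 had 7 gained and 1 lost of 109, and 3 gained and 0 lost of these lay apart from peaks of the other group. The authors' deposited table has 0 higher and 2 lower regions for Lrrtm4 (FDR 0.00013 and 0.00501). These 10 genes spanned 755 to 2271 kb, and a gene with more windows has more chances to hold a gained one.

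The largest net loss was in other genes. Gmds, an enzyme of GDP-fucose synthesis, had 0 gained and 8 lost windows of 73. Cacna2d3, a calcium channel subunit, had 1 gained and 8 lost of 198, and Pde4d, a cAMP phosphodiesterase, 3 and 9 of 203. Nr3c2, the mineralocorticoid receptor, which binds corticosterone in hippocampal neurons, had 1 gained and 7 lost of 81. Its windows held a peak in 62, 78 and 68 cases in LPS, against 65 and 80 in saline, and the groups overlapped. Kalrn, a guanine nucleotide exchange factor of dendritic spines, had 1 and 7 of 172, and Sash1 0 and 6 of 94. Clstn2, a synaptic calsyntenin, had 3 and 8 of 154. Cadm1, Ror1 and Sema5a had 1 gained and 6 lost each, of 142, 74 and 90. Ranks could go the other way here too. Clstn2 had 12 shared windows ranked higher and 1 lower of 85, whereas Cadm1 had 5 higher and 16 lower of 75.

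**Figure D2:**
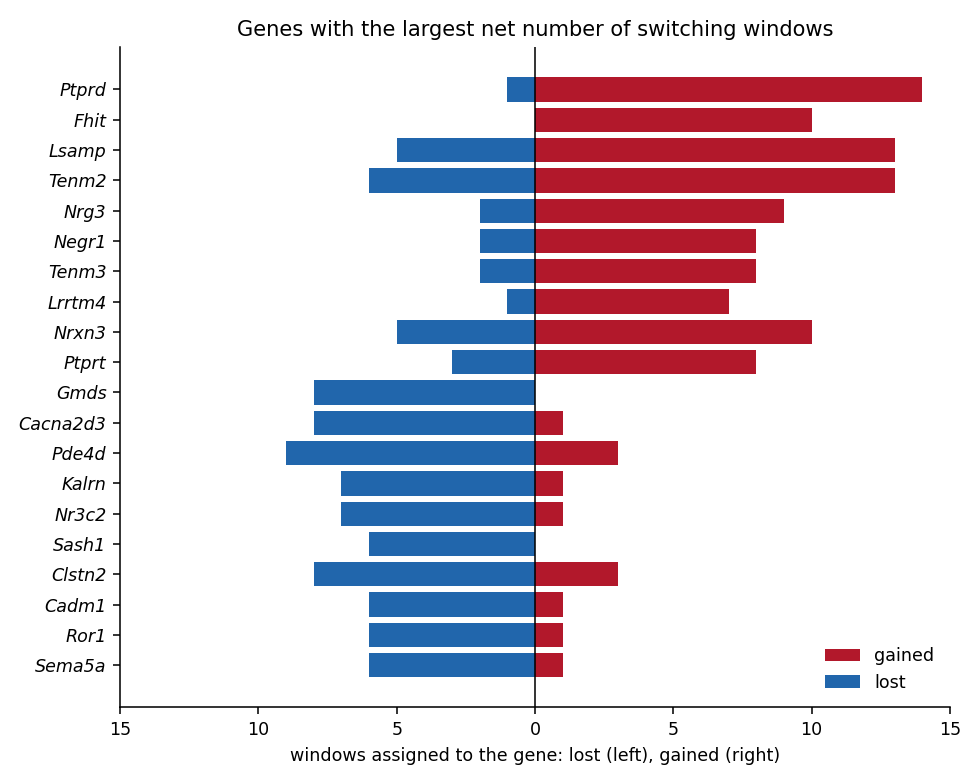
Number of gained windows (red, to the right) and lost windows (blue, to the left) for the 10 genes with the largest net number in each direction. Ptprd leads with 14 gained and 1 lost, and Gmds had 0 gained and 8 lost.

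The strongest gained windows apart from any saline peak were mostly far from protein-coding genes. The one with the highest mean percentile lay on chromosome 8 (chr8:30255670-30256170), with no protein-coding gene within 100 kb, and had a deposited fold of 6.16, 6.09 and 6.44 in the LPS libraries and no peak in saline. Of the 10 highest, 6 had no protein-coding gene within 100 kb. The others lay in Smg6, a factor of nonsense-mediated decay (5.11, 5.02 and 5.95 in LPS), in Ddr2, a collagen receptor (5.85, 6.86 and 3.84), in Sugct (4.92, 6.55 and 3.84) and 9.39 kb from the olfactory receptor gene Olfr145 (5.39, 6.09 and 4.87).

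Of the 10 highest lost windows of the same kind 9 had a protein-coding gene within 100 kb. Of all 219 such windows 81.7% did, against 58.1% of the 248 gained ones and 84.7% of all tested windows. One lay 6.45 kb from Fam169a, with no peak in LPS and folds of 8.78 and 4.32 in saline. Another lay in Kdm7a, a histone demethylase gene (5.11 and 6.29 in saline). Pdgfra, the receptor that marks oligodendrocyte precursors, had one at 9.89 kb (chr5:75207844-75208344) with folds of 4.47 and 5.22 in saline.

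Strong gained windows apart from saline peaks and near genes of the lists fell to Timeless, Nectin3, Trpm3, Kdr, Calb2 and Gria4. Kdr, the VEGF receptor of endothelial cells, had one at 4.84 kb (chr5:75927734-75928234) with folds of 3.54, 3.35 and 3.29 in LPS and no peak in saline. The window of Calb2, the calretinin gene of interneurons and mossy cells, had 4.16, 4.27 and 5.35 in LPS. Strong lost ones fell to Rgs5, Runx1, Erg, Lef1, Pdgfra, Slc4a4, Slc4a5 and Dlg2. Runx1, a transcription factor of blood cells and microglia, had one in its gene body (chr16:92713746-92714246) with 4.63 and 3.6 in saline and no peak in LPS. The lost window of Erg, an endothelial transcription factor, had 3.83 and 3.6 in saline, and that of Lef1, a transcription factor of the Wnt pathway, 3.99 and 4.32. Rgs5, the pericyte gene whose promoter is printed above, had one 31 kb away, with 4.79 and 3.78 in saline.

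Shared windows with the largest rank differences were read only where the call stayed the same with the summit inside the window and over the merged peak, as it did for 14558 of the higher ones (8.22%) and 15048 of the lower ones (8.5%). The largest differences over all shared windows, at Mettl18 and Wdr19, did not stay. The largest gap upward that stayed was 51 kb from Arsj, with ranks of 85.3, 80.6 and 73.4 in LPS and 20 and 0.899 in saline (69.3 points). A window in Naaladl2 had ranks of 77.6, 76.8 and 77.7 in LPS, against 17.4 and 10.3 in saline. Of the 10 largest upward gaps, 5 had no protein-coding gene within 100 kb. The remaining 3 were in Rgl1 and Tmem132d and 64 kb from Lingo2, a leucine-rich repeat gene of neurons.

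Downward, a window in Cntnap4, a neurexin family gene of interneuron synapses, had ranks of 8.69, 23 and 21.5 in LPS and 89.9 and 68.8 in saline (-61.6 points). One 38.2 kb from Fasl, the death ligand of activated lymphocytes, had 15.4, 23 and 13.1 in LPS and 93.4 and 62.7 in saline. A window in Parp14, an interferon-stimulated ADP-ribosyltransferase gene, had 11.8, 5.43 and 6.03 in LPS and 57.5 and 70.6 in saline. In all 3 windows every LPS library ranked below both saline libraries, as the rule demands.

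**Figure D3:**
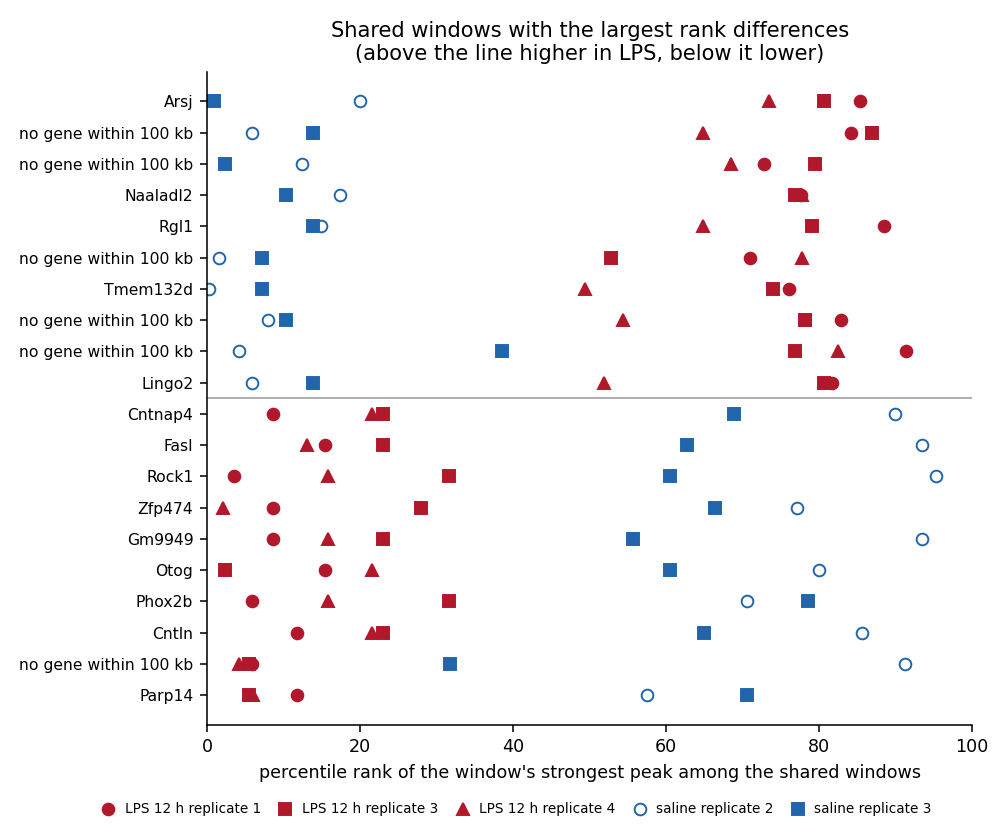
Percentile rank (0 to 100, higher is stronger) of each library's peak at the 10 shared windows per direction with the largest rank difference that stayed under the other readings of a peak. LPS libraries are red and saline libraries blue, and the windows above the line, led by Arsj (69.3 points), are higher in LPS while those below it, led by Cntnap4 (-61.6 points), are lower.

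Genes of the LPS pathway had more lost than gained windows, though the counts were near even without saline replicate 2 (23 gained and 24 lost). Of 464 windows of 46 acute inflammatory and NF-kB genes, 6 were gained and 13 lost (1.29% and 2.8%, against 1.71% and 1.82% of all windows). A protein-coding gene lay within 100 kb of every list window, but of 73.5% of gained, 88.5% of lost and 84.7% of all windows. Among windows near genes the share gained is therefore below 1.71% and the share lost above 1.82%. Of the list's gained windows 3 belonged to the receptor gene Tlr4, with 3 gained and 0 lost of 18. Its window in the gene body (chr4:66828590-66829090) had folds of 3.39, 4.88 and 2.33 in LPS, and windows 39.4 and 55.1 kb away had 3.08, 3.81 and 2.47, and 5.08, 3.81 and 2.74. No saline library had a peak within 500 bp of any of these. Il1r1, the interleukin-1 receptor, had 1 gained window. Lost windows fell to the transcription factor genes Nfkb1 (2), Nfkbiz and Stat3 (those of Nfkb1 and Stat3 within 500 bp of an LPS peak), the signalling genes Tlr2, Irak4 and Map3k8, the feedback inhibitors Socs3 and Il1rn, and the effectors Cxcl1, Vcam1, Ptgs2 and Saa3. The window of Nfkbiz, 77.3 kb from the gene, had folds of 7.82 and 2.34 in saline and no peak in LPS. Of the 272 shared windows of the list, 21 ranked higher (7.72%) and 24 lower (8.82%), against 8.85% and 9.22% of all shared windows.

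Genes of the interferon response had 0 gained and 7 lost windows of 203 (0% and 3.45%). The lost ones were near the receptor genes Ifnar1, Ifnar2 and Ifngr2, near the transcription factor Irf8 (2), in the antiviral gene Oas2 and near Parp14. Those of Irf8, 55.5 and 70.6 kb from the gene, had folds of 3.68 and 3.06, and 3.35 and 2.7, in saline. No LPS library had a peak within 500 bp of any of the 7. Lost windows outnumbered gained ones in this list whichever library was left out, with 0 gained and 8 lost without LPS replicate 1 and 7 gained and 37 lost without saline replicate 3. Each such set holds every window called with all 5 libraries, so this order is partly fixed in advance. All windows gave 9630 gained and 6850 lost without LPS replicate 1, and 11454 and 43707 without saline replicate 3. Lost also exceeded gained over all windows without LPS replicate 3 (8298 and 12993). Among shared windows of the list the order was the other way, with 10 ranked higher (8.47%) and 7 lower (5.93%) of 118. The shares of all shared windows were 8.85% and 9.22%.

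Glucocorticoid and stress axis genes had 5 gained and 13 lost windows of 562 (0.89% and 2.31%), and Nr3c2 held 1 of the gained and 7 of the lost. Apart from peaks of the other group there were 3 gained and 7 lost in the list, and 0 and 4 in Nr3c2. Without any single library the list still had more lost than gained windows, in sets that again hold every window called with all 5 libraries. There were 11 gained and 18 lost without LPS replicate 1 and 14 gained and 86 lost without saline replicate 3. All windows also had more lost than gained without saline replicate 3, and without LPS replicate 3, where the list had 11 and 30. Nr3c1, the glucocorticoid receptor, had 1 of each. Fkbp5 and Tsc22d3, both targets of that receptor, had no gained or lost window. A promoter window of Tsc22d3 ranked 85.8, 67.7 and 80.6 in LPS and 66.3 and 42.9 in saline (23.4 points), a call that did not stay under the other readings of a peak. Immediate early genes had 3 gained and 4 lost windows of 478 (0.628% and 0.837%). Of their 311 shared windows 13 ranked higher (4.18%) and 31 lower (9.97%), against 8.85% and 9.22% of all shared windows. Clock genes had 7 gained and 8 lost of 495 (1.41% and 1.62%), near the shares of all windows.

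Promoters of several genes that respond to LPS in many tissues had a peak in all 5 libraries. The promoter peak of Nfkbia, the inhibitor of NF-kB, ranked 61.7, 49.4 and 65.5 in LPS and 49.5 and 67.6 in saline. Tnfaip3, the A20 deubiquitinase, had 92.9, 88.2 and 89.3 in LPS and 88.9 and 91.6 in saline. Socs3, a feedback inhibitor of cytokine signalling, had 38.5, 36.7 and 47.9 in LPS and 37.5 and 57.5 in saline. At all 3 the groups overlapped. The same held for Irf8 (93.9, 96.3 and 82.1 in LPS, 89.3 and 96.3 in saline) and Fos (70.5, 67.8 and 70.9 in LPS, 70 and 63.3 in saline). Of 46 inflammatory genes 35 had a start in the promoter table and 20 had a promoter peak in all 5 libraries, with 1 promoter window higher and 1 lower among 21. Promoter windows of Tnf and Icam1 had a peak in all 3 LPS libraries and 1 saline library, and those of Osmr and 1 of 2 of Irak3 in 1 LPS library and both saline libraries. The first pattern was found in 6.62% and the second in 4.05% of all windows with a peak in 2 or more libraries.

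Over all lists, 9 promoter windows ranked higher and 11 lower of 267 shared by all libraries. Of all 11488 shared promoter windows, those centred within 250 bp of a start, 307 ranked higher and 372 lower, and 250 and 309 of these stayed under the other readings of a peak. Birc3 ranked 77.6, 37.2 and 41.7 in LPS and 17.4 and 28.3 in saline (29.3 points). Dlg2 ranked 61.5, 73.5 and 79.3 in LPS and 52.6 and 36.4 in saline (26.9 points). Maff ranked 73.5, 78.9 and 73.8 in LPS and 56.2 and 63.4 in saline (15.6 points). Foxc1, a forkhead factor of pericytes, was also higher (22.6 points). Zfp488 ranked 25.5, 30.3 and 42.9 in LPS and 60.7 and 61.8 in saline (-28.4 points). Rgs5 ranked 43.9, 50.4 and 56.5 in LPS and 72.1 and 70.6 in saline (-21 points). Mt2 ranked 23.5, 18.3 and 26.4 in LPS and 50 and 30.8 in saline (-17.6 points). Lfng, a glycosyltransferase that modifies Notch, and Rora, a nuclear receptor of the clock, were lower too (-21.4 and -17.4 points). In each of these the LPS and saline ranks were apart by the rule, and the gap in Birc3 was widest in LPS replicate 1.

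Promoters that changed rank held fewer CpG pairs than shared promoters as a whole, with a median of 10 for higher and 11 for lower ones against 20. Their median GC content was 55.3% and 56%, against 60.7%. They also had weaker peaks, with a median of the mean rank of 51.3 and 46.1, against 76.3. The AP-1 string TGANTCA, on either strand from 250 bases before to 50 after the start, was in 8.47% of higher and 10.8% of lower promoters, in 5.34% of shared promoters and in 7.81% of all promoters in the table. The E-box string (20.5% and 21.5%, against 13.3% of shared) and the glucocorticoid receptor string (16.9% and 17.5%, against 12.7%) were also more frequent in both. CRE (0.651% and 1.88%, against 3.2%) and Egr (9.77% and 10.2%, against 13.9%) were less frequent in both. Base composition and peak rank moved with these calls in both directions, and their part in them was not tested. Few promoters switched outright: 34 were gained and 56 lost, and apart from peaks of the other group 19 and 43. Col6a1, a collagen gene, Aebp1, Hoxd1 and Cd244a, a receptor of natural killer cells, were among the 19. Pparg, a nuclear receptor of lipid metabolism, Fgf21, Slfn2, an interferon-inducible gene, and Zbtb46, a transcription factor of dendritic cells, were among the 43.

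Cell types were read from their marker genes. Over all windows 1.71% were gained and 1.82% lost, and of all shared windows 8.85% ranked higher and 9.22% lower. Microglial genes had 5 gained and 7 lost windows of 371 (1.35% and 1.89%), and 14 of 232 shared windows ranked higher (6.03%) and 31 lower (13.4%). Runx1 had 7 of those 31. Endothelial and mural genes had 9 gained and 13 lost of 463 (1.94% and 2.81%), and 34 of 256 shared windows ranked higher (13.3%) and 28 lower (10.9%). Astrocyte genes had 11 gained and 18 lost of 690 (1.59% and 2.61%, against 1.71% and 1.82% of all windows, with or without a gene nearby). Apart from peaks of the other group they had 10 and 9. Oligodendrocyte genes had 8 and 8 of 547 (1.46% each). Blood cell genes had 4 gained and 6 lost windows of 131 (3.05% and 4.58%), and Csf3r, the G-CSF receptor of granulocytes, held 4 of the lost ones. The median rank of the blood list was 62.8, 59.9 and 56.5 in LPS and 54.3 and 60.5 in saline, and that of the microglial list 49.9, 50 and 47.3 in LPS and 48.3 and 49.8 in saline. The groups overlapped in both, and the part of cell numbers in the results was not tested.

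In genes of excitatory neurons more windows ranked lower than higher. Excitatory neuron genes had 20 gained and 20 lost windows of 1265 (1.58% each, against 1.71% and 1.82% of all windows). Of their 706 shared windows 42 ranked higher (5.95%) and 80 lower (11.3%), against 8.85% and 9.22% of all shared windows. Rbfox3, which encodes the neuronal nuclear antigen NeuN, had 0 higher and 14 lower of 80, with median ranks of 10.9, 16.9 and 16.8 in LPS and 27.8 and 19.9 in saline. Gria1 and Grin2b, subunits of glutamate receptors, had 5 higher and 11 lower of 69, and 1 and 9 of 87. Mef2c, a transcription factor of neurons and microglia, had 4 gained and 0 lost windows. Of its 36 shared windows 1 ranked higher and 3 lower, and it had 0 higher and 1 lower region in the authors' deposited table. Synaptic genes had 62 gained and 51 lost of 3240 (1.91% and 1.57%), and 138 ranked higher (7.81%) and 188 lower (10.6%) of 1768. Hippocampal region markers had 30 gained and 30 lost of 1409 (2.13% each). Cholinergic genes, which encode receptors and enzymes of the transmitter that DFP acts on, had 4 gained and 8 lost of 375 (1.07% and 2.13%). Of their 217 shared windows 29 ranked higher (13.4%) and 12 lower (5.53%). The muscarinic receptor gene Chrm3 had 10 of those 29 and 2 of the 12. Ache, which encodes acetylcholinesterase, had none of either. Chrm3 leaned the other way by its 1 gained and 2 lost windows, and by 1 higher and 2 lower regions in the authors' deposited table.

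**Figure D4:**
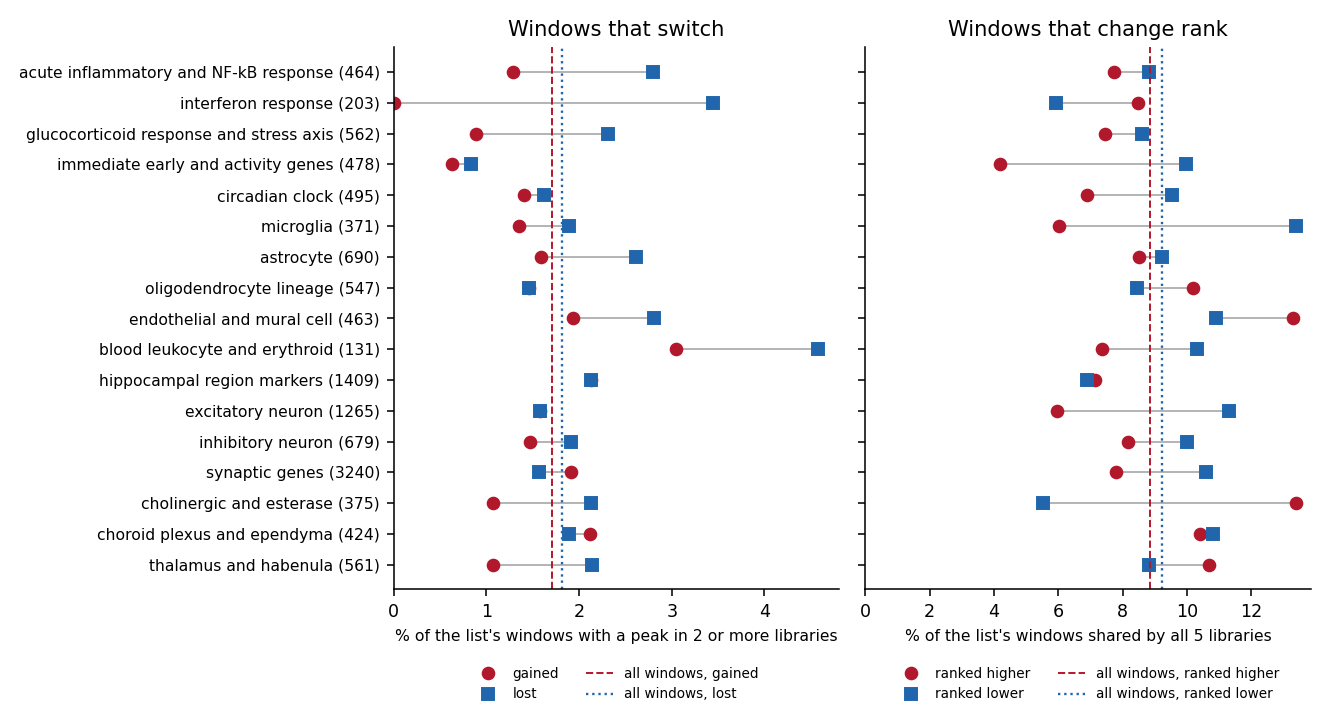
Share of each gene list's windows gained (red) or lost (blue) on the left, and ranked higher (red) or lower (blue) on the right, in %, with the number of windows with a peak in 2 or more libraries in brackets. Dashed and dotted lines give the shares of all windows, 1.71% and 1.82% on the left and 8.85% and 9.22% on the right, and the interferon list lies at 0% gained and 3.45% lost. Every list window lies within 100 kb of a protein-coding gene. Of the windows behind the lines, 84.7% do on the left and 85.4% on the right.

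The authors' deposited table for this comparison, made with csaw per the series' design text, holds 1211 regions higher and 1873 lower in LPS. Windows at them were 0.376% and 0.593% of those tested. The 2 directions differed in how uniform the libraries were. At regions higher in the authors' deposited table, median ranks were 74.5, 69 and 64.8 in LPS replicates 1, 3 and 4 and 28 and 33.9 in saline. At regions lower in the authors' deposited table, medians were 30.1, 62.7 and 38.4 in LPS and 81.1 and 69.9 in saline, so LPS replicate 3 lay nearer to saline replicate 3 than to the other LPS libraries. These libraries chose the regions, so the ranks are a description. In the authors' deposited table, 263 of the higher regions held a gained window and none a lost one, and 92 of the lower regions held a lost one and none a gained one. In the authors' deposited table, 58.1% of higher and 46% of lower regions carried no gene label.

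Several genes of the lists appear in the authors' deposited table. Reln, the extracellular guidance protein of interneurons, had 3 higher regions in the authors' deposited table. The inhibitory neuron list, which holds Reln, had 5 regions up and 6 down in the authors' deposited table, with Adarb2 and Prox1 at 2 down each. The Reln region at chr5:22274151-22274560 (FDR 0.0166 in the authors' deposited table) had ranks of 85.3, 87.8 and 81.4 in LPS and 20 and 62.7 in saline. A higher region 2.71 kb from Il1r1 (FDR 0.0204 in the authors' deposited table) had 30.1, 48.6 and 43.3 in LPS and 10.1 and 7.16 in saline. One in an intron of Meis2, a homeobox gene (FDR 0.00591 in the authors' deposited table), had 64.2, 46.7 and 58.7 in LPS and 25.3 and 17.4 in saline. The gained window at Kdr is also at a higher region of the authors' deposited table (FDR 0.0183). The endothelial and mural list had 2 higher and 4 lower regions in the authors' deposited table, with Flt1, Eng and Sox17 lower and Ets1 at 1 of each. All LPS ranks lay above both saline ranks at the regions of Reln, Il1r1 and Meis2 whose ranks are given here.

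Among lower regions, one 72.8 kb from Runx1 (FDR 0.0012 in the authors' deposited table) had ranks of 19, 70.7 and 18.7 in LPS and 82.1 and 75.6 in saline. One 9.81 kb from Irf8 (FDR 0.0064 in the authors' deposited table) had 2.67, 53.6 and 5.76 in LPS and 73 and 71.4 in saline. LPS replicate 3 was the highest of its group at both. A region 71.5 kb from Dusp6, a phosphatase of the ERK pathway (FDR 0.0438 in the authors' deposited table), had 30.1, 31.6 and 6.03 in LPS and 82.5 and 74 in saline. One 35.8 kb from Bdnf, the neurotrophin gene (FDR 0.0316 in the authors' deposited table), had 67.1, 92 and 80.2 in LPS and 99.8 and 97.7 in saline. Stat3 had 2 lower regions in the authors' deposited table, and at the one inside the gene with an FDR of 0.0181 both saline libraries and no LPS library had a peak. Tox3 had 4 higher regions and none lower, and Iqgap2 5 lower and none higher, in the authors' deposited table.

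The gained and lost windows were then read in libraries that had no part in calling them. In frontal cortex of the same animals, 35.7, 38.5 and 38.1% of gained windows carried a peak in LPS at 12 h, against 33.3 and 33.3% in saline. The LPS mean was 4.13 percentage points higher and all 3 LPS values lay above both saline values, with an exact two-sided permutation p of 0.2, the smallest possible. Of lost windows 19.9, 24.4 and 25.5% carried one in LPS and 34.6 and 22.7% in saline (-5.34 points, exact permutation p = 0.6), and the groups overlapped. All windows with a peak in 2 or more hippocampal libraries carried one in 57.1, 60.5 and 61.5% in cortical LPS and in 64.4 and 57.3% in cortical saline libraries, with saline replicate 2 the highest there as in lost windows. The difference for lost windows turned to 0.595 points without saline replicate 2.

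Ranks in frontal cortex leaned the same way as in hippocampus. Windows ranked higher in hippocampus and shared by the cortical libraries (9201) had mean cortical ranks of 52.8, 51.3 and 50.5 in LPS and 45.3 and 49 in saline (4.39 points, exact permutation p = 0.2). Those ranked lower (9575) had 35.8, 37.2 and 37.5 in LPS and 42.8 and 38.6 in saline (-3.89 points, exact permutation p = 0.2). Both sets were apart between the groups, and 0.2 is again the smallest p possible. The cortical saline libraries come from the same animals as the hippocampal ones, so an effect of the animal cannot be told apart from that of LPS.

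In hippocampus at other hours after LPS, 41.9, 48.9 and 43.9% of gained windows carried a peak at 6 h and 73.9, 55.2 and 61.2% at 24 h. Of lost windows 37.5, 38.9 and 15.6% carried one at 6 h and 28.6, 28.5 and 19.5% at 24 h. All windows with a peak in 2 or more libraries had one in 69.1 to 79.5% at 6 h and in 75.7 to 82.9% at 24 h. Gained windows needed a peak in 3 libraries and lost ones in 2, and gained ones ranked higher in their own lists, so their shares are not compared with each other. No hippocampal saline library was left to compare these with.

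**Figure D5:**
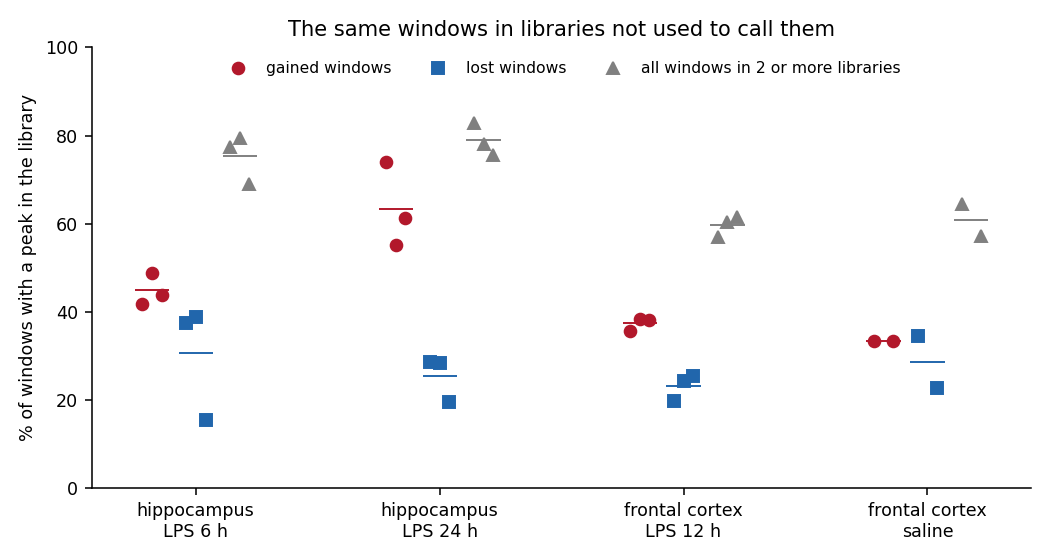
Share of gained (red), lost (blue) and all windows (grey) with a peak, in %, in libraries not used to call them, with 1 point per library and a bar at the mean. Gained windows reached 55.2 to 73.9% in hippocampus at 24 h after LPS, and in frontal cortex 35.7 to 38.5% in LPS at 12 h and 33.3% in saline.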

How the data were processed

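OMNI-ATAC-seq libraries from frozen hippocampus were, per the labels' protocols, sequenced from both ends at 50 bp, with 1 hippocampal library per animal. MACS2 2.2.7.1, Bowtie2 2.4.4, FastQC 0.11.9 and Trim Galore 0.6.7 are listed, with the build GRCm38 (mm10), per the submitters' processing notes. Filters, duplicate handling and the transposase shift are not given in the sources used here. The authors called and deposited peaks library by library, each with a score, its fold enrichment, a -log10 p and a -log10 q, and these served only for ranks and thresholds inside 1 library. Depth is unknown from such lists, and no interval that needs it is given. The authors' deposited table of csaw regions gives no fold change but a direction and a value taken as -10 times the log10 FDR, because the highest FDR in it then equals 0.05.

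Windows of 250 bp to either side were placed around summits of the 5 libraries, strongest first and without overlap. A peak was present where it overlapped a window by 50% of the shorter. Each window went to the closest protein-coding gene body within 100 kb, in a RefSeq table of the same build that gives no strand. Start sites came from a second RefSeq table that holds 32851 promoters, lacks chromosome 18 and does not list every gene, so promoter counts cover only listed starts. Sequence of the windows themselves was not used here. Of 517 genes on 17 lists (inflammatory, interferon, glucocorticoid, immediate early, clock, microglia, astrocyte, oligodendrocyte, endothelial, blood, hippocampal, excitatory, inhibitory, synaptic, cholinergic, choroid plexus, thalamus and habenula), 513 matched. Members, lists and rules were chosen with earlier results of these data known. Named are, per direction, the 10 strongest windows, rank differences and genes by net windows, up to 4 genes per list and deposited regions of list genes, in selection. Windows without a peak of the other group within 500 bp, rank calls that stayed under other readings of a peak, distance bins, promoter windows and their motifs were added after the values were seen, and so were genes named from them.

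Group differences of single library values were tested by exact permutation, two-sided, and windows were not tested. Window calls were checked on simulated data. The labels name separate animals, so libraries are the replicates. Alternatives covered stricter or equal numbers of peaks, overlap, merged intervals, rank measure and threshold, FDR, gene distance and leaving out each library. Computation used scipy 1.17.1, numpy 2.4.6 and pandas 2.3.3 under Python 3.11.15, with numba 0.67.0 for speed and figures from matplotlib 3.10.9.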

Additional observations from a re-analysis of the deposited data

How the results depend on the processing

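Of 69 alternatives that keep all libraries, 37 were classed as the same, 32 as moved and 0 as a reversed sign. For counts and shares, the same meant near the reported value. For differences between groups it meant only the same sign, so the size could change. With the 50000 strongest peaks per library, the frontal cortex difference was 1.46 points for gained windows, against 4.13. For lost windows it was -0.544 points, against -5.34. Which of gained and lost, or higher and lower, was the more numerous did change with the setting. With only peaks of -log10 q of 5 or more there were 3270 gained and 3207 lost windows (50.5% gained, against 48.3% with all peaks), and 9974 ranked higher and 10298 lower. With the 50000 strongest peaks per library these counts were 1383 and 1260 (52.3% gained), and 2685 and 2677. An overlap of 80% gave 612 strong gained and 515 strong lost windows, and the merged union of intervals gave 46.9% gained. A rank difference of 20 points left 8506 windows higher and 7249 lower, and ranks by -log10 p gave 16481 and 16436, against 15667 and 16323 reported. Of strong gained windows 248 had no saline peak within 500 bp. At an FDR of 0.01 the authors' deposited table kept 173 higher and 367 lower regions. With 5 kb as the limit, 10.6% of gained and 18.5% of lost windows were near a gene end, against 3.64% and 5.03% within 1 kb. Within 1 kb lay 11.8% and 8.7% of strong windows, and 1.58% and 3.52% of windows apart from peaks of the other group. Of these last, 42.3% of gained and 22.5% of lost windows lay over 100 kb from a gene end, and 41.3% and 23.3% of strong ones. The share within 1 kb of a gene end was lower for gained than for lost windows except among strong windows, without LPS replicate 3 (4.48% and 4.43%) and without saline replicate 2 (4.88% and 4.71%).

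Leaving out each library in turn asks fewer libraries to share a call, so counts were larger: 8298 (without LPS replicate 3) to 18728 (without saline replicate 2) gained, 6850 (without LPS replicate 1) to 43707 (without saline replicate 3) lost, 760 to 2434 strong gained, 442 to 11268 strong lost, 20220 to 38776 ranked higher and 21558 to 39599 ranked lower. The share gained ran from 20.8% (without saline replicate 3) to 58.4% (without LPS replicate 1). Gained windows were within 1 kb of a gene end in 3.82 to 4.88% and lost windows in 4.43 to 5.74%, and beyond 100 kb from one in 31.2 to 37.5% and 20.5 to 23.7%. List genes held 612 to 2092 switching windows, against 393. In frontal cortex the difference in LPS minus saline was 3.58 to 5.01 points for gained and -11.3 to 0.595 for lost windows, positive only without saline replicate 2. The number of intervals differed by -40952 to 15429 (positive without saline replicate 2, -12761 with all) and covered length by -11.2 to 13.4 Mb (negative without LPS replicate 4, at -2.17, or saline replicate 3, and 1.1 with all). The cause of these shifts was not tested. No paired analysis was possible because the LPS and saline groups share only replicate number 3. With 3 libraries against 2 no p below 0.2 is possible, and unknown depth limits what absence of a weak peak shows.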

Other observations

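Inhibitory neuron genes had 10 gained and 13 lost windows of 679 (1.47% and 1.91%, against 1.71% and 1.82% of all windows). Of their 379 shared ones 31 ranked higher and 38 lower (8.18% and 10%, against 8.85% and 9.22%). Choroid plexus and ependyma genes had 9 gained and 8 lost of 424 (2.12% and 1.89%), and 26 ranked higher and 27 lower of 250 (10.4% and 10.8%). Thalamus and habenula genes, which would mark tissue from outside the hippocampus, had 6 gained and 12 lost of 561 (1.07% and 2.14%). Their median ranks were 53.9, 55.1 and 51.9 in LPS and 50.9 and 55.7 in saline, which overlapped. Their promoters were open in all 5 libraries for 15 of the 22 genes with a listed start, against 23 of the 32 hippocampal region markers with one.

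Some genes held regions of both directions. Anks1b, a scaffold of synapses, had 5 higher and 4 lower regions in the authors' deposited table, the most of any gene. Inpp5d, an inositol phosphatase of microglia, had 1 region up and 2 down in the authors' deposited table. The higher one had ranks of 74.9, 70.3 and 45.9 in LPS and 31.7 and 44.7 in saline, and the lower one at chr1:87700051-87700810 had 30.1, 63.2 and 54.3 in LPS and 83.4 and 75.9 in saline.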
